A study of Mus musculus with 6 samples.

Results

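The peaks described here cover the major histone gene cluster of the mouse (the Hist1 cluster) in an ATAC-seq comparison of colon cancer organoids. They were chosen by position alone. Every peak of the table that overlapped chr13:21800000-22180000 or chr13:23520000-23780000 (mm9) by at least 1 base was taken, which gave 49 of 43020 peaks. The first window held 27 peaks, called P1 to P27 in chromosome order, and the second held 22, called Q1 to Q22. Of these, 44 had enough reads to be tested, 25 in the first window and 19 in the second. P11, P12, Q7, Q19 and Q20 were not tested, with 0 to 29 reads in any library.

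ATAC-seq marks open chromatin by the cuts of the Tn5 transposase, so that more reads over a region mean that it is more accessible in the cells sampled. A smaller share of cells with an open site and a less open site in every cell cannot be told apart in such libraries. Both groups were organoids of the genotype that the labels call AKP. The naive group, of 3 libraries, was AKP organoids with no recipient mouse in the labels. The primary tumour group, also of 3 libraries, was organoid lines grown from tumours that naive organoids had formed in the colon of immunocompetent C57Bl6 mice, and those lines were passaged until cancer cells alone remained. Growth in the mouse, outgrowth and passage are therefore shared by all lines of that group and cannot be told apart. The titles of the 3 primary tumour libraries carry different numbers that the labels do not explain, and the labels do not say outright that the libraries of a group came from separate cultures or animals, so the p-values measure the spread between these libraries, which may be technical. Epithelial and other cell type markers were not checked, because no annotation of the build of the peaks was used.

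Libraries held between 1185356 and 5987545 reads in peaks, and the peaks of the histone cluster took between 2864 and 19567 of them. The median peak of the cluster had 38 reads in the shallowest library, naive replicate 1, and 227 reads in the deepest, naive replicate 2. Small differences at weak peaks were therefore not detectable in naive replicate 1. Levels below are CPM, each count relative to the reads of its library in the tested peaks, after scaling by edgeR's TMM method. The log2 ratio of a peak is its log2 fold change, primary tumour against naive, and a peak is said to have fallen when its adjusted p was under 0.05 in edgeR's quasi-likelihood test over all 36179 tested peaks.

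Histones are the proteins around which DNA is wound. The core histones H2A, H2B, H3 and H4 form the nucleosome, and the linker histone H1 binds the DNA that enters and leaves it. Their replication-dependent genes are small, lie close together, and are transcribed mainly in S phase, when new DNA has to be packed. The factor NPAT, bound at the promoters of the cluster in a nuclear structure named the histone locus body, couples their transcription to the cell cycle.

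In RefSeq's gene table (GRCm38.p6) chromosome 13 carried 54 protein-coding histone genes of this kind, 6 of class H1, 13 of H2A, 15 of H2B, 9 of H3 and 11 of H4. In gene order they formed 2 groups, of 23 and 31 genes, separated by a block of 147 other genes. That block held 75 vomeronasal receptor genes (Vmn1r), which serve the sensing of pheromones, and 46 transfer RNA genes. A further 31 transfer RNA genes stood among the first group. Because this table and the peaks are on different builds, no peak was assigned to a single gene, and whether each window covers all genes of a group was not checked.

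The 4 promoters printed next are shown because peaks in a dense gene cluster are often at gene starts, and they let a reader see what these short promoters hold. Each is the stretch of 250 bases before the start of the first gene of its class in gene order, from RefSeq (GRCm38.p6). They lie at chr13:21780626-21780875 (minus strand) for the linker histone gene H1f5, chr13:21716162-21716411 (plus strand) for the H2A gene H2ac13, chr13:21717378-21717627 (plus strand) for the H3 gene H3c10, and chr13:21734784-21735033 (plus strand) for the H4 gene H4c11. These positions are not on the build of the peaks and cannot be set beside them. Capitals mark TATAAA (the TATA box), CCAAT (the CCAAT box) and GGTCCG (part of a histone H4 promoter element), on either strand, so that CCAAT on the opposite strand reads ATTGG.
H1f5: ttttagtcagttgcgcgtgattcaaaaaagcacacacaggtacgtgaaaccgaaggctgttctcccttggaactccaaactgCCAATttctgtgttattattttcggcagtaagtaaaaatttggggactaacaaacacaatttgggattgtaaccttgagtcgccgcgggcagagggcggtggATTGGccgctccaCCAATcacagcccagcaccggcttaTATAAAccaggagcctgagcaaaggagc
H2ac13: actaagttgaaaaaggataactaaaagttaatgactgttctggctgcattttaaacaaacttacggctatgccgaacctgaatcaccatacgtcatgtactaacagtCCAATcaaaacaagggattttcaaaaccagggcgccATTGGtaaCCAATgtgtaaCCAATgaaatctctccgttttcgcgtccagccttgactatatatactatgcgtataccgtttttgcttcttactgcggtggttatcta
H3c10: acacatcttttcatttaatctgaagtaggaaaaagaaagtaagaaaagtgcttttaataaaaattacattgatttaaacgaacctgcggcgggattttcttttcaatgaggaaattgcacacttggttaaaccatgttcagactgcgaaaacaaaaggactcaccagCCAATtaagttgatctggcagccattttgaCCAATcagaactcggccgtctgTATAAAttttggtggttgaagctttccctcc
H4c11: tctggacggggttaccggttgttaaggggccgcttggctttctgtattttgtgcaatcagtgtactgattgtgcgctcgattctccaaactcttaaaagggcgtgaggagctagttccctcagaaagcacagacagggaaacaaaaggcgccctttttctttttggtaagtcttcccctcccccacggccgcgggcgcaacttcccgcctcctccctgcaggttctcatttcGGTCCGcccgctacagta

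Promoters of 51 of the 54 genes were in the table. CCAAT was found within 250 bases before the start in 43 of 51 (84.3%), against 33.8% of all 32851 promoters. It was present in all 40 promoters of the classes H1, H2A, H2B and H3 and in 3 of 11 of class H4. TATAAA was found in 26 of 51 (51.0%), against 12.4% of all promoters. GGTCCG was found in 8 of 11 promoters of class H4, in 2 of the 40 others and in 6.72% of all promoters. These are matches of letters on both strands and show no bound factor. Near-identical coding sequences are a known trait of these genes, and how the authors treated reads that match several places was not given in the sources used here.

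The histone cluster was less accessible in the tumour-derived lines. Of its 44 tested peaks 16 fell (36.4%) and 0 rose by edgeR. Without naive replicate 2 this count was 7 of 45 (15.6%), against 4.10% of the other chromosome 13 peaks and 2.23% of all tested peaks. With each library scaled per chromosome it was 8 of 44 (18.2%), against 6.80% and 6.46%. Relative to the rest of chromosome 13, naive replicate 3 lay among the primary tumour lines. With all 6 libraries and TMM scaling, 6.40% of all tested peaks fell and 8.00% rose. Of the 1574 other tested peaks of chromosome 13, 12.6% fell and 5.27% rose. At an unadjusted p under 0.05 the cluster had 22 of 44 peaks lower and 0 higher by edgeR. All tested peaks had 4738 of 36179 lower and 5177 higher, and the other chromosome 13 peaks had 376 of 1574 lower and 153 higher. DESeq2, at an adjusted p under 0.05, called 15 cluster peaks lower (34.1%) and 0 higher. It called 5.99% of all tested peaks and 11.5% of the other chromosome 13 peaks lower. The fold change was below 0 at 42 of the 44 peaks (95.5%), against 66.4% of the other chromosome 13 peaks and 50.3% of all tested peaks. Its median over the cluster was -0.63 on the log2 scale. The same median was -0.31 over the other peaks of chromosome 13 and -0.01 over all tested peaks. In 16 of the 44 peaks all 3 primary tumour libraries lay below all 3 naive libraries, an order seen in 15.3% of all tested peaks and in 25.0% of the other chromosome 13 peaks, and 13 of the 16 peaks that fell were among them. The reverse order was seen at 0 of the 44, against 15.5% and 8.58%. In the first window 6 of 25 tested peaks fell, with a median log2 fold change of -0.50, and in the second 10 of 19 fell, with a median of -0.91. The difference between the windows was not tested.

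**Figure D1:**
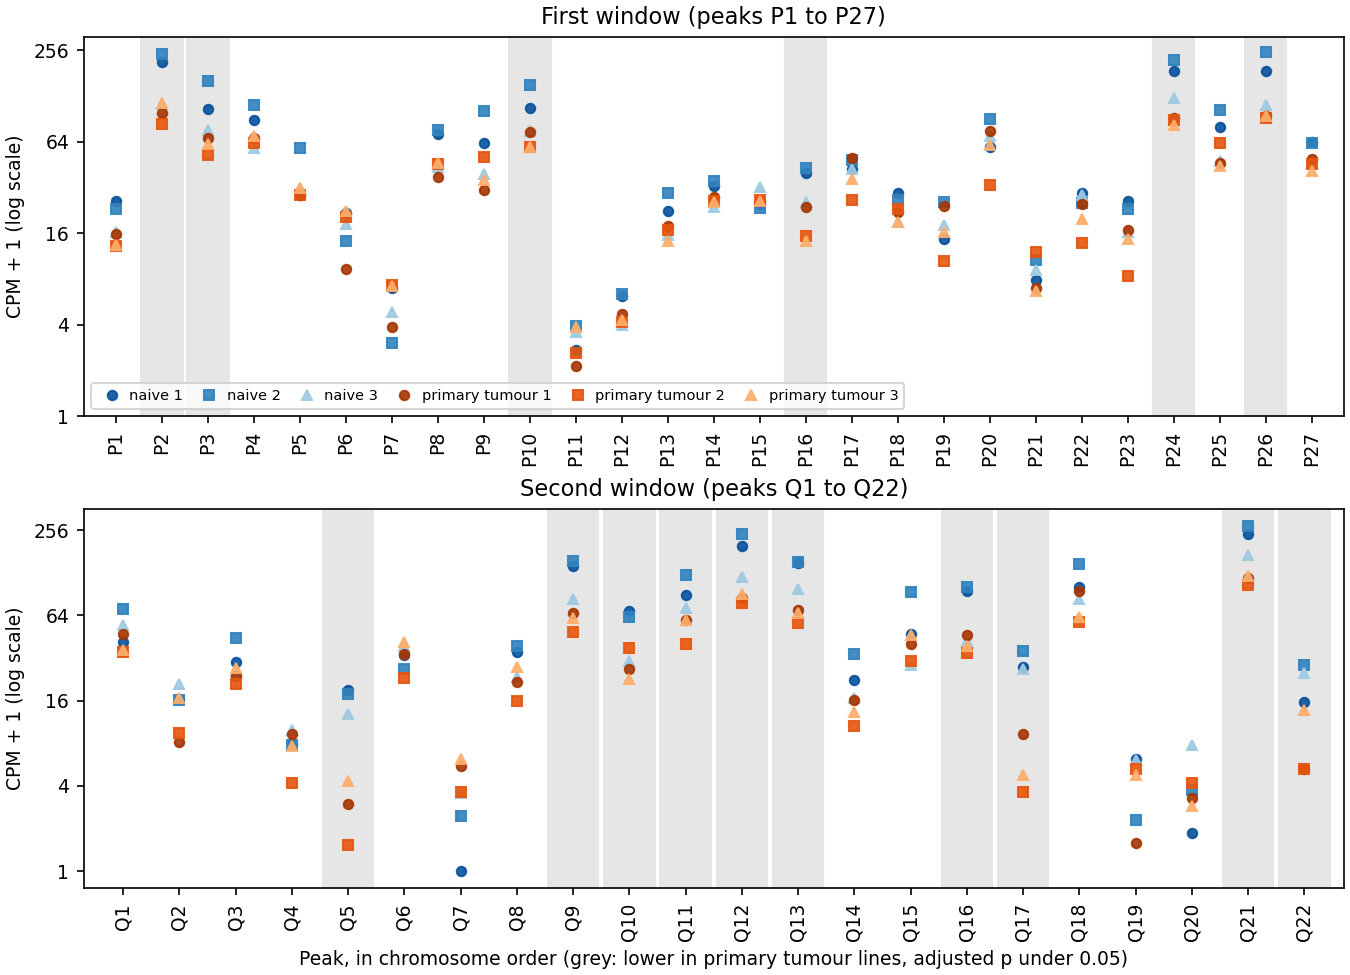
Accessibility of all 49 peaks of the histone cluster in each of 6 libraries, as CPM + 1 on a log scale, with peaks in chromosome order and a grey band behind the 16 that fell. At most strong peaks naive replicates 1 and 2 lie highest, and naive replicate 3 lies between them and the primary tumour libraries or among the latter.

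The strongest peaks of the cluster, by mean CPM per kb of peak over all 6 libraries, were Q21, Q12, Q13, P26, P24 and P10, and all 6 fell. Q21 (chr13:23775445-23776738, mm9), the strongest with a mean of 132 CPM per kb, had 240, 271 and 170 CPM in naive replicates 1 to 3 and 117, 103 and 121 CPM in primary tumour replicates 1 to 3. The groups did not overlap, and naive replicate 3 was the nearest to the primary tumour lines, at 1.40 times the highest of them. The means were 227 ± 52.2 and 114 ± 9.27 CPM (SD, n = 3 each), 2.00-fold lower in the second group (log2 ratio -0.999, SE 0.19, edgeR adjusted p = 0.000914).

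Q12 (chr13:23662654-23663967) had 196, 241 and 119 CPM in naive organoids and 84.4, 77.8 and 89.2 CPM in primary tumour lines. Its lowest naive library, replicate 3, stood 1.34 times above the highest primary tumour library. The peak was 2.22-fold lower in primary tumour lines (log2 ratio -1.15, SE 0.22, edgeR adjusted p = 0.000862). Q13, the next peak to the right (chr13:23665735-23666709), had 148, 151 and 97.8 CPM against 69.0, 55.0 and 65.0 CPM. Naive replicates 1 and 2 were alike there and naive replicate 3 was again the lowest naive library. The log2 fold change of Q13 was -1.07 (SE 0.21, edgeR adjusted p = 0.00112).

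In the first window the strongest were P26 (chr13:22134431-22135809) and P24 (chr13:22126940-22128313), which lie near its right-hand end. P26 had 187, 246 and 110 CPM in naive organoids and 94.1, 91.0 and 93.4 CPM in primary tumour lines. The primary tumour lines had an SD of 1.63 CPM, while the range of the naive libraries was wider than the difference between the group means. P24 had 184, 218 and 123 CPM against 90.7, 87.8 and 81.6 CPM. Log2 fold changes were -0.97 (SE 0.23, edgeR adjusted p = 0.00536) and -1.02 (SE 0.21, edgeR adjusted p = 0.00143). Without naive replicate 2 P26 was not called, at a log2 ratio of -0.66 (edgeR adjusted p = 0.0705), while P24 was called with any library left out.

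P10 (chr13:21878746-21879835) had 106, 150 and 74.7 CPM in naive organoids and 73.6, 58.2 and 58.3 CPM in primary tumour lines. Naive replicate 3 and primary tumour replicate 1 nearly coincided there. The log2 fold change was -0.81 (SE 0.23, edgeR adjusted p = 0.0197). Without naive replicate 2, primary tumour replicate 2 or primary tumour replicate 3 it was not called (log2 ratios -0.49, -0.76 and -0.74, edgeR adjusted p = 0.230, 0.0727 and 0.0855).

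Other strong peaks among the 12 with the smallest adjusted p had a similar order of libraries. Q9 (chr13:23625646-23627589) had 142, 153 and 82.4 CPM in naive organoids and 65.9, 48.2 and 60.7 CPM in primary tumour lines (log2 ratio -1.11, SE 0.23, edgeR adjusted p = 0.00175). Q11 (chr13:23646824-23648323) had 87.5, 121 and 70.9 CPM against 58.5, 39.2 and 57.9 CPM (log2 ratio -0.85, SE 0.23, edgeR adjusted p = 0.0145). In both, all naive libraries lay above all primary tumour libraries and primary tumour replicate 2 was the lowest. P3 (chr13:21813347-21814457) had 104, 160 and 75.2 CPM against 66.7, 51.3 and 61.2 CPM (log2 ratio -0.93, SE 0.24, edgeR adjusted p = 0.00981). At P2 (chr13:21807512-21809741) the groups overlapped. It had 212, 240 and 111 CPM in naive organoids and 97.3, 82.6 and 114 CPM in primary tumour lines, so that primary tumour replicate 3 exceeded naive replicate 3 (log2 ratio -0.94, SE 0.23, edgeR adjusted p = 0.00804). Without naive replicate 2 the edgeR adjusted p was 0.161 at P3, 0.0775 at P2 and 0.169 at Q11, and without primary tumour replicate 2 it was 0.0860 at Q11.

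The remaining 3 peaks that fell were P16, Q10 and Q16. Their log2 fold changes lay between -1.04 and -0.91, with adjusted p from 0.0173 to 0.0392 (edgeR), and the groups overlapped at Q10 and Q16. They are named because they complete the count, after their values were seen. Each of the 3 was not called without naive replicate 1, naive replicate 2 or primary tumour replicate 3 (edgeR adjusted p from 0.0544 to 0.232), nor was Q10 without primary tumour replicate 1 (0.0622) or P16 and Q16 without primary tumour replicate 2 (0.0831 and 0.0634).

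The largest fold changes were not at the strong peaks but at Q5, Q17 and Q22 of the second window, which were narrow and had low counts. Q5 (chr13:23552427-23552916) had 18.0, 16.7 and 11.96 CPM in naive organoids and 2.00, 0.529 and 3.32 CPM in primary tumour lines. These rest on 21, 91 and 28 reads in naive organoids and 7, 1 and 7 reads in primary tumour lines. The means were 15.6 ± 3.19 and 1.95 ± 1.40 CPM (SD, n = 3 each), 7.66-fold lower in primary tumour lines in the fit (log2 ratio -2.94, SE 0.56, edgeR adjusted p = 0.000865).

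Q17 (chr13:23687489-23688190) had 26.6, 34.7 and 25.6 CPM in naive organoids and 8.27, 2.65 and 3.79 CPM in primary tumour lines, from 31, 189 and 60 reads and 29, 5 and 8 reads. It had the smallest adjusted p of the cluster and was 5.58-fold lower in primary tumour lines (log2 ratio -2.48, SE 0.42, edgeR adjusted p = 0.000225). Q22 (chr13:23779144-23779439), the last peak of the second window, had 14.6, 27.7 and 23.9 CPM against 4.28, 4.23 and 12.8 CPM (log2 ratio -1.69, SE 0.45, edgeR adjusted p = 0.0114). Without naive replicate 2 Q22 was not called, at a log2 ratio of -1.48 (edgeR adjusted p = 0.108), and its ratio lay between -2.39 and -1.39 with other libraries left out. Without primary tumour replicate 1 the ratio of Q17 was -3.15. At Q5 and Q17 naive replicate 3 was well apart from the primary tumour lines, at 3.60 and 3.10 times the highest of them. At Q22 the nearest libraries were naive replicate 1 and primary tumour replicate 3, at 14.6 and 12.8 CPM. At the 6 strongest peaks the same ratio lay between 1.02 and 1.42.

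**Figure D2:**
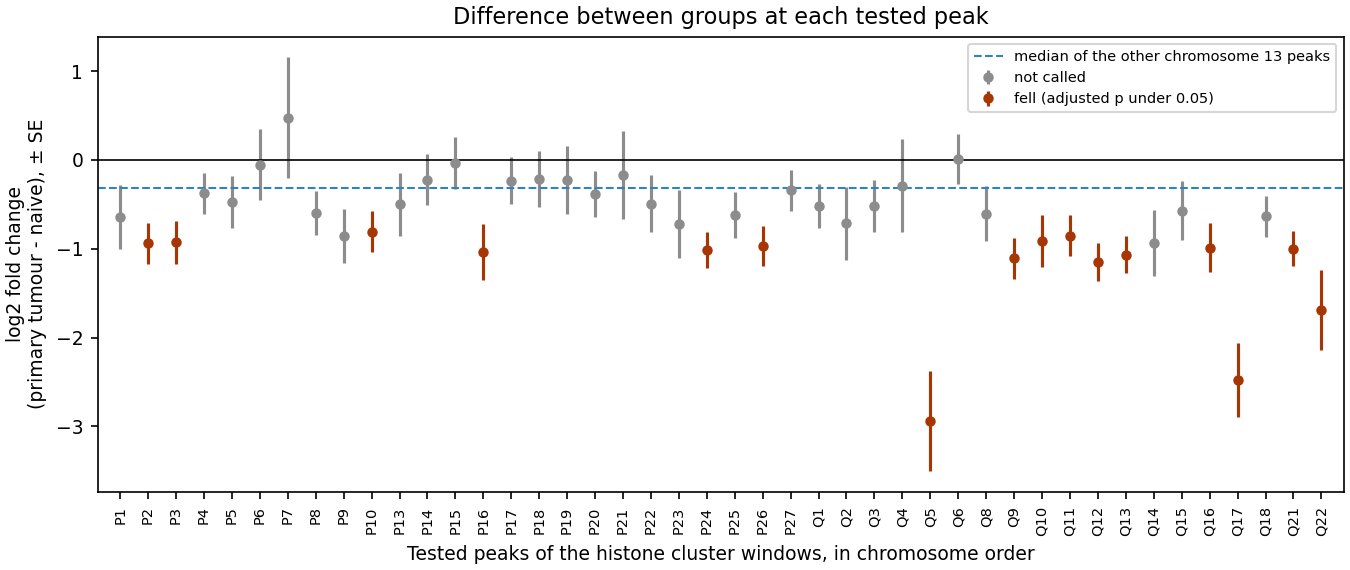
Log2 fold change (primary tumour minus naive) with its SE at the 44 tested peaks in chromosome order, with the 16 that fell in brown. A dashed line gives the median of the other chromosome 13 peaks, -0.31, and Q5, Q17 and Q22 stand far below the rest.

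The 28 tested peaks that were not called were mostly weaker. Their median was 26.8 CPM, against 86.6 CPM for the 16 that fell, and 26 of them had a fold change below 0. The exceptions were P7, the tested cluster peak of lowest mean CPM, at a log2 fold change of 0.48 (edgeR adjusted p = 0.718), and Q6 at 0.01 (edgeR adjusted p = 0.991). Q6 was also the widest peak, with 3736 bp. P15 had close values in both groups, with 24.0, 22.4 and 31.2 CPM in naive organoids and 25.1, 25.4 and 25.1 CPM in primary tumour lines. P6, P7, P15 and Q6, chosen after their values were seen, had log2 fold changes near 0 or above it within the same windows.

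The peaks at the window limits are given as a description. P1, the first, had 24.9, 22.2 and 15.4 CPM in naive organoids and 14.8, 12.2 and 12.3 CPM in primary tumour lines. P27, the last of the first window, had 62.6, 61.7 and 45.3 CPM against 48.2, 45.0 and 39.8 CPM. Q1 had 40.3, 70.4 and 53.4 CPM against 45.9, 34.4 and 35.6 CPM. None of the 3 was called (edgeR adjusted p = 0.258, 0.368 and 0.174), while Q22 at the right-hand limit fell.

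Just outside the windows, the nearest peaks start at 21622714 and 22207878 around the first and at 23515485 and 23792859 around the second. The peak at 21622714 had 13.7, 11.9 and 17.9 CPM in naive organoids and 9.98, 6.88 and 9.01 CPM in primary tumour lines. The peak at 22207878 had 10.3, 3.67 and 6.41 CPM against 3.99, 11.6 and 9.96 CPM. The peak at 23515485 had 39.5, 38.0 and 49.1 CPM against 31.7, 23.3 and 42.2 CPM, and that at 23792859 had 6.86, 10.5 and 13.7 CPM against 16.5, 12.7 and 13.8 CPM. None of the 4 was called, and the groups overlapped at each of them but the first. In the stretch between the windows 13 peaks were listed, 7 were tested and 0 fell or rose (0 at an unadjusted p under 0.05), with a median log2 fold change of 0.00. Peaks that fell were found past the right-hand limit of the second window, as given next. The 7 tested peaks between the windows had at most 37.3 CPM, and of the other chromosome 13 peaks under 40 CPM 9.19% fell. So few weak peaks cannot show where the difference ends.

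Beyond Q22, where 8 further peaks follow before a gap of over 100 kb, 4 fell, at chr13:23837058-23839132, chr13:23842871-23844506, chr13:23848724-23849363 and chr13:23852726-23854405. That at 23837058 had the highest mean CPM of the 4, with 185, 222 and 105 CPM in naive organoids and 95.8, 93.7 and 73.0 CPM in primary tumour lines. It was the sole one of the 4 where the groups did not overlap. The peak at 23842871 had 120, 117 and 60.2 CPM against 53.0, 42.9 and 62.6 CPM. The peak at 23848724 had 81.5, 84.3 and 34.2 CPM against 31.1, 37.6 and 29.9 CPM, and that at 23852726 had 184, 199 and 94.8 CPM against 95.0, 87.3 and 78.7 CPM. At these 3 naive replicate 3 lay below the highest primary tumour library. The log2 fold changes of the 4 lay between -1.02 and -0.87. With both windows extended on each side up to such a gap, 20 of 58 tested peaks fell (34.5%) and 0 rose. Over all tested peaks 6.40% fell and 8.00% rose. Over the chromosome 13 peaks outside the original windows 12.6% fell and 5.27% rose. Those still include the 14 peaks added by the extension, of which 4 fell.

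Library by library, the cluster was high in naive replicates 1 and 2 and low in the other 4 libraries. Its summed signal was 2929, 3595 and 2067 CPM in naive replicates 1 to 3 and 1787, 1516 and 1715 CPM in primary tumour replicates 1 to 3. The groups did not overlap, and the means were 2864 ± 766 and 1672 ± 140 CPM (SD, n = 3 each), a ratio of 0.584. Naive replicate 3 was the lowest of its group. At 31 of the 44 tested peaks (70.5%) both other naive libraries lay above it, an order seen in 31.2% of all tested peaks and 33.0% of the other chromosome 13 peaks. Its log2(CPM + 1) was below the mean of the other naive libraries by a median of -0.57 over the cluster, against 0.02 over the other chromosome 13 peaks and 0.02 over all tested peaks. Naive replicates 1 and 2 both lay above every primary tumour library at 32 of the 44 peaks (72.7%), against 31.6% of the other chromosome 13 peaks. Naive replicate 3 did so at 20 of the 44 (45.5%), against 41.6%.

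The number of calls moved with the libraries in the fit. Without naive replicate 3, 20 of 44 cluster peaks fell (45.5%), against 8.62% of the other chromosome 13 peaks and 4.48% of all tested peaks. Without naive replicate 2, the deepest library, 7 of 45 fell (15.6%), against 4.10% and 2.23%. The calls over all peaks went from 5210 to 2215, so that the drop was not limited to the cluster. The 7 cluster peaks were P24, Q5, Q9, Q12, Q13, Q17 and Q21, all among the 16. The fold change of P26, the strongest of those lost, went from -0.97 to -0.66 on the log2 scale (edgeR adjusted p = 0.0705). Without naive replicate 1, 13 of 45 cluster peaks fell (28.9%), against 9.86% of the other chromosome 13 peaks and 5.15% of all tested peaks. Without primary tumour replicates 1, 2 and 3 in turn, 16 of 45 (35.6%), 13 of 47 (27.7%) and 12 of 46 (26.1%) fell. In those 3 fits 16.9%, 5.79% and 8.84% of the other chromosome 13 peaks fell, and 6.41%, 4.20% and 4.22% of all tested peaks. What set naive replicate 3 apart was not tested.

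The remaining peaks of chromosome 13 were compared in each library, because the whole chromosome was low in primary tumour replicate 2. The median of log2(CPM + 1) minus the naive mean over the other chromosome 13 peaks was -0.07, -0.69 and -0.16 in primary tumour replicates 1 to 3 and between 0.01 and 0.02 in the naive libraries. Over the cluster it was -0.53, -0.88 and -0.59 in primary tumour replicates 1 to 3 and 0.09, 0.31 and -0.38 in naive replicates 1 to 3. The cluster minus the rest of the chromosome was therefore 0.08, 0.29 and -0.39 in naive replicates 1 to 3 and -0.46, -0.19 and -0.43 in the tumour-derived lines. On this relative scale naive replicate 3 lay among the primary tumour lines, and the groups overlapped. The group means were -0.01 ± 0.35 and -0.36 ± 0.15 (SD, n = 3 each), so that the difference of -0.36 was about as large as the spread of the naive libraries.

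**Figure D3:**
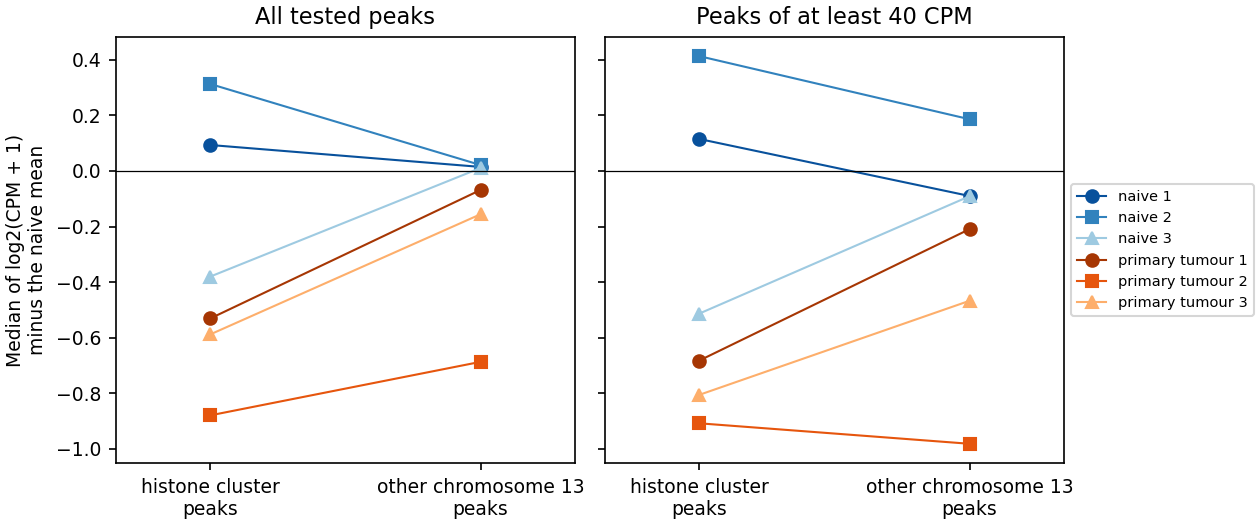
Median of log2(CPM + 1) minus the naive mean in each library, over the histone cluster peaks and over the other chromosome 13 peaks, for all tested peaks (left) and for peaks of at least 40 CPM (right). Lines join the values of a library. On the left the naive libraries meet near 0 off the cluster but range from -0.38 to 0.31 on it, and primary tumour replicate 2 is low on both sides.

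Measured as a level, the median cluster peak stood above the median of the other chromosome 13 peaks in every library. It was 2.92, 4.45 and 2.60 times as high in naive replicates 1 to 3 and 2.43, 3.62 and 2.50 times as high in primary tumour replicates 1 to 3. The high value of primary tumour replicate 2 goes with a low median of its other chromosome 13 peaks, 6.88 CPM against 9.37 to 11.2 CPM in the other libraries.

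When each library was also scaled by the median of each chromosome, without the cluster peaks, 8 of the 44 cluster peaks fell (18.2%) and 0 rose. Of the other chromosome 13 peaks 6.80% fell, and of all tested peaks 6.46% fell and 8.33% rose. The 8 were P24, Q5, Q9, Q12, Q13, Q17, Q21 and Q22, all among the 16. The cluster's median log2 fold change was then -0.33. The fold changes of Q5 and Q17 were -2.70 and -2.24 (edgeR adjusted p = 0.00136 and 0.000352), and those of Q12 and Q21 were -0.83 and -0.68 (edgeR adjusted p = 0.0140 and 0.0187). The other 8 calls ended under this scaling, those of P2, P3, P10, P16, P26, Q10, Q11 and Q16, with log2 fold changes from -0.75 to -0.50 and edgeR adjusted p from 0.0654 to 0.3205. Without primary tumour replicate 2, 13 of 47 cluster peaks fell (27.7%), against 5.79% of the other chromosome 13 peaks and 4.20% of all tested peaks.

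Cluster peaks were stronger than the rest of the chromosome, and strong peaks of chromosome 13 fell more often than weak ones. The median tested cluster peak had 36.8 CPM, a width of 1180.5 bp and an authors' score of 36.6, against 14.0 CPM, 818 bp and 28.2 for the other chromosome 13 peaks. Peaks of at least 40 CPM were taken next, a limit chosen after the data were seen. Of these, 12 of 21 cluster peaks fell (57.1%), 75 of 235 other chromosome 13 peaks fell (31.9%), and 10.5% of all did. The limit was on the mean of all 6 libraries, so a peak could pass on its naive level alone. Q10, which fell, had means of 52.8 CPM in naive organoids and 28.0 CPM in primary tumour lines. Q16, which also fell, had 78.4 and 39.1 CPM. The shares at this limit can therefore follow in part from the choice of peaks. All 21 cluster peaks of at least 40 CPM had a fold change below 0. So did 205 of the 235 other strong chromosome 13 peaks (87.2%) and 68.2% of all strong peaks. The median was -0.86 over the strong cluster peaks, -0.51 over the other strong peaks of the chromosome and -0.17 over all strong peaks. Under 40 CPM, 4 of 23 tested cluster peaks fell (17.4%), against 9.19% of the other chromosome 13 peaks and 5.38% of all tested peaks. The strong cluster peaks minus the other strong peaks of the chromosome gave -0.47, 0.07 and -0.34 in primary tumour replicates 1 to 3 and 0.21, 0.23 and -0.42 in naive replicates 1 to 3. In primary tumour replicate 2 the strong cluster peaks were thus no lower than other strong peaks of chromosome 13.

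**Figure D4:**
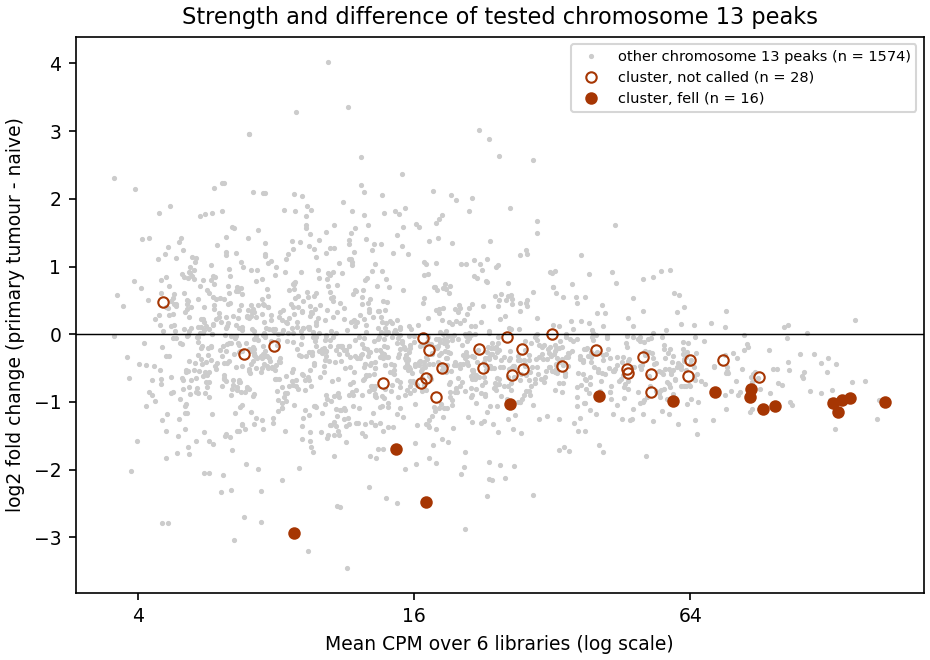
Log2 fold change (primary tumour minus naive) against mean CPM over 6 libraries (log scale) for the 1574 other tested chromosome 13 peaks (grey) and the 44 tested cluster peaks (brown, filled for the 16 that fell). The strong cluster peaks lie close together between -1.15 and -0.34, and the other chromosome 13 peaks are mostly below 0 at that strength.

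Within the cluster, the fold change was lower at peaks with a denser signal. Density was taken over all 6 libraries. The same naive counts thus entered both the density and the fold change, so rho does not relate independent measures. Spearman's rho between the log2 fold change and CPM per kb was -0.62 over the 44 tested peaks, which share libraries and neighbourhood, against -0.28 over the other chromosome 13 peaks. With mean CPM it was -0.37, against -0.19 over the other chromosome 13 peaks. With width it was 0.24, against 0.05, and with the authors' score -0.30, against -0.03. Q5 and Q17, with 17.9 and 24.2 CPM per kb, had the largest folds at a low density, so the relation did not hold for every peak.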

How the data were processed

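ATAC-seq was done on 6 libraries of 50000 cells each, with 2 reads of 75 bases per fragment, per the labels' protocols. The authors deposited raw read counts for 43020 peaks called over all samples, per the file's row names, with no normalization. The submitters' processing notes name Bowtie, Picard, SAMtools, MACS2, bedtools and mm9, without versions or roles. Duplicate handling, the shift of read ends and whether starts count from 0 or 1 were not given in the sources used here. Libraries were grouped by their titles. Counts were fitted whole with edgeR 4.0.16 in R 4.3.3 (filterByExpr, TMM, robust quasi-likelihood F test, group as the sole term, 2-sided, Benjamini-Hochberg adjustment over 36179 tested peaks). SEs come from the fold change and F statistic. The fit was checked on simulated counts. Alternatives were other scalings, DESeq2 1.42.0, filters, offsets, a replicate block and each library left out. Offsets per chromosome needed at least 20 peaks. Extended windows and the 40 CPM limit were added after the data were seen.

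Named with values in every library were the 12 called peaks of smallest adjusted p, the 6 with the highest CPM per kb, the first and last peak of each window and the nearest peaks outside. Peaks and lists were chosen with earlier results of these data known. RefSeq tables gave gene names, gene order and promoter sequences only. Lists of other histone genes and of cell type markers need an annotation of the build of the peaks and were not used here.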

Additional observations from a re-analysis of the deposited data

How the results depend on the processing

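No cluster peak rose in any of the 14 alternatives to the edgeR fit. Other scalings (total count, DESeq2 size factors, abundance trend), DESeq2's test and both filters gave 15 or 16 cluster peaks that fell. In these fits 9.88% to 13.6% of the other chromosome 13 peaks and 5.15% to 6.62% of all tested peaks fell. An offset per library and chromosome, which removes the shift of the whole chromosome, gave 8 (18.2%). In that fit 6.80% of the other chromosome 13 peaks and 6.46% of all tested peaks fell. The median log2 fold change went from -0.31 to -0.03 over the other chromosome 13 peaks and from -0.63 to -0.33 over the cluster. Why fewer cluster peaks were called there was not tested. Leaving out 1 library gave between 7 and 20, lowest without naive replicate 2 and highest without naive replicate 3. Over all peaks, leaving out 1 library gave between 2215 and 5440 calls, against 5210; the cause was not tested. Q5, Q9, Q12, Q13, Q17, Q21 and P24 were called in all 14 alternatives, and Q10 in 5. The cluster level relative to the other chromosome 13 peaks ranged from -0.49 to -0.19 over libraries left out and from -0.41 to -0.25 under other settings. With a replicate block 15 cluster peaks (34.1%) and 3539 peaks in all were called. In that block fit 8.64% of the other chromosome 13 peaks and 4.33% of all tested peaks fell. Naive and primary tumour libraries of the same number deviated from their group means with correlations of -0.24, -0.11 and 0.0048 (replicates 1 to 3). Each naive library correlated better with another number, though for replicate 3 only at 0.0133 against 0.0048. With 3 libraries a group these correlations cannot show or exclude pairs. The numbers were not read as pairs, because the labels do not say that they mark a shared animal, batch or day.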

Other observations

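Between the 4 peaks that fell beyond Q22 lay 1 strong narrow peak that did not, at chr13:23841408-23841924 (mm9). It had 31.7, 37.1 and 42.3 CPM in naive replicates 1 to 3 and 51.9, 32.3 and 54.5 CPM in primary tumour replicates 1 to 3, a log2 ratio of 0.32 (SE 0.26, edgeR adjusted p = 0.471). Its signal was 80.7 CPM per kb of peak, denser than that of all 4 peaks around it, which had 62.2, 46.5, 77.9 and 73.4 CPM per kb. It was chosen after its values were seen.

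Among the 5 cluster peaks not tested, Q7 (chr13:23580613-23580964) was the only one with all primary tumour libraries above all naive libraries. It held 0, 8 and 6 reads in naive replicates 1 to 3 and 16, 5 and 11 reads in primary tumour replicates 1 to 3, which is too few for a comparison.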
